A study of Mus musculus with 126 samples.

Results

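Trh encodes the precursor of thyrotropin-releasing hormone (TRH). It was taken for its levels in 8 RNA-seq libraries of mouse embryonic stem cells, where it is 1 of 23420 genes in the deposited count table and 1 of the 15822 with enough reads to be tested. The gene was chosen because its level was strongly lower after an inhibitor of histone deacetylation, and more so in cells without DNA methyltransferases. Those differences are therefore given as a description, with no test. The libraries form 4 groups of 2. Wild type J1 cells and TKO cells of the same background, which lack Dnmt1, Dnmt3a and Dnmt3b (Dnmt1-/-, Dnmt3a-/-, Dnmt3b-/-), each spent 36 h with Trichostatin A (TSA, 5 ng/µl by the labels) or with its solvent DMSO (0.0033%). Below, groups with TSA are called treated and groups with DMSO control. All dishes were coated with gelatin, and the medium held serum and leukaemia inhibitory factor. The labels name no separate clones of the TKO line, so genotype and line cannot be told apart. The series calls the libraries biological replicates.

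TRH is a short peptide hormone best known from neurons of the hypothalamus, from which it makes the pituitary release thyrotropin, the hormone that drives the thyroid gland. Its precursor carries several copies of the peptide, which proprotein convertases cut out, carboxypeptidases trim, glutaminyl cyclases close at the front end and the amidating enzyme Pam finishes at the back end. Thyroid hormone receptors act on the gene, and the factors Creb1 and Stat3 are known to raise it. TSA blocks histone deacetylases, so that acetyl groups build up on histones. The Dnmt genes make the methyltransferases that write and copy DNA methylation.

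Trh lies on chromosome 6 at 92242062 to 92244648 of the mm10 build, on the minus strand, and the deposited table gives it 3 exons of 1381 bases in all. Exon 1 spans 92244548 to 92244648, exon 2 spans 92243672 to 92243887 and exon 3 spans 92242062 to 92243125. No other gene in the table has an exon overlapping these (0 genes). Because both methylation and acetylation act on promoters, the 250 bases before the RefSeq start of Trh are shown here, 5′ to 3′ on the gene's own strand (GRCm38.p6, chr6:92244651-92244900, minus strand). Capitals mark CpG, the dinucleotide at which mammalian DNA is methylated.
Trh promoter: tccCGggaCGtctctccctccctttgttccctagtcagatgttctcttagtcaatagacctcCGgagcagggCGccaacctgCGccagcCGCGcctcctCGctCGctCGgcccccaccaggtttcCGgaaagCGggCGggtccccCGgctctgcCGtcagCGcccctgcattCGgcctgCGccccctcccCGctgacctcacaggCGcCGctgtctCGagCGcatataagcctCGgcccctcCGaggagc
The window holds 25 CpG and is 68.8% G and C, with an observed over expected CpG ratio of 0.899. Of the 32851 RefSeq windows of this length, 89.3% hold fewer CpG, and the medians over all windows are 6 CpG, 52.4% and a ratio of 0.373. The letters TGACCT, a core that thyroid hormone receptors and other nuclear receptors can bind, occur once, starting 57 bases before the start site, and are found on either strand in 14.0% of all windows. A TATA box (TATAAN) begins 26 bases before the start site, and 22.7% of windows hold those letters. GGGCGG, the GC box of Sp1, lies 117 bases before it (32.7% of windows). CCGGAA, the ETS core, occurs at 2 overlapping positions on opposite strands, 126 and 128 bases before it (12.0% of windows). The motif of NRF1 (0.782% of windows), the E-box CACGTG (6.02%) and the YY1 motif AAGATGG (4.49%) had no match on either strand. These are matches of letters, and methylation and acetylation at the window were not analysed here.

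The 8 libraries held 13280631 to 15542527 counts each, so that 3 counts, the limit a count of 0 allows, stood for 0.193 to 0.226 counts-per-million (CPM). Such limits cover counting error only. As a check of the genotype, Dnmt1, Dnmt3a and Dnmt3b were lower in all 4 TKO libraries than in all 4 wild type libraries. Mean Dnmt1 was at 446 CPM in control wild type and 130 in control TKO, Dnmt3a at 211 and 26.4, and Dnmt3b at 592.0 and 44.9. All 25 listed pluripotency markers were detected at testable levels. Their summed level was 5650 to 5940 CPM in control wild type, 3640 to 3870 in treated wild type, 6720 to 7320 in control TKO and 4050 to 4100 in treated TKO.

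Trh was among the most abundant transcripts of untreated cells of both genotypes and low in TKO cells with TSA. The levels below are normalised CPM, counts relative to the library total corrected by a TMM factor, a standard correction for library composition. Summed levels of marker lists, above and below, are counts relative to the library total without that correction. In control wild type the libraries had 10327 and 9863 Trh counts, or 737 and 799 CPM. In treated wild type they had 1783 and 1087 counts, or 109 and 73.9 CPM. No treated wild type library came near a DMSO library. In control TKO the libraries had 6919 and 8444 counts, or 473 and 614 CPM. In treated TKO they had 166 and 136 counts, or 11.2 and 8.54 CPM. The order of the group means was control wild type, control TKO, treated wild type and treated TKO, and no library of one group overlapped those of the next. Replicates differed by 1.08-fold in control wild type, 1.47-fold in treated wild type, 1.30-fold in control TKO and 1.32-fold in treated TKO. In these bulk libraries, fewer cells that express Trh and less Trh RNA per cell cannot be told apart.

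**Figure D1:**
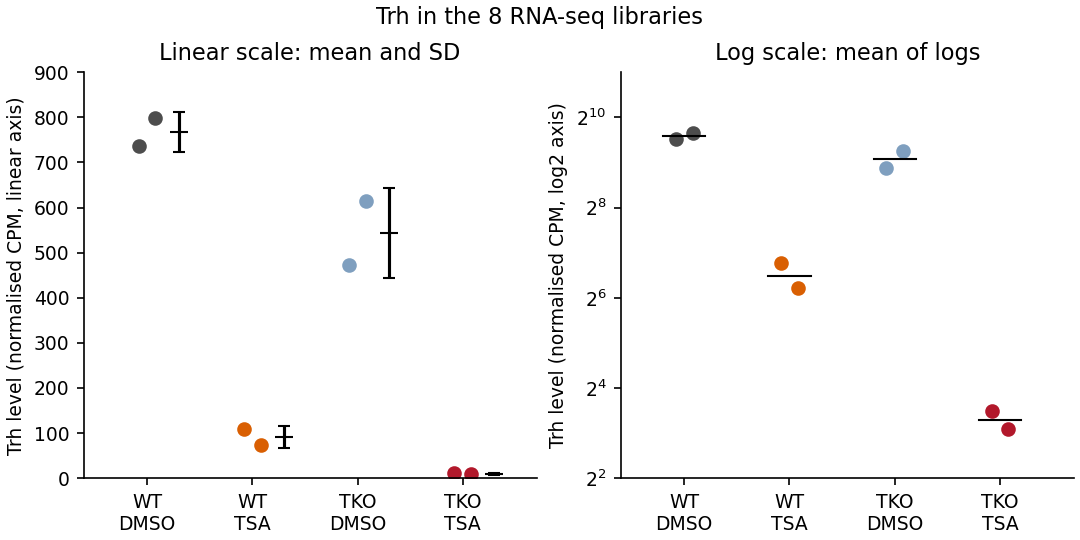
Trh in each of the 8 libraries (points) by group, in normalised CPM, on a linear axis with the mean and SD of 2 libraries (left) and on a log2 axis with the mean of the logs (right). On the linear axis the wild type pair of groups is farther apart (768 and 91.4 CPM) than the TKO pair (544.0 and 9.89 CPM), and on the log axis the TKO pair is farther apart.

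Levels between genes were compared per length, as transcripts-per-million (TPM) computed from the counts and the deposited exon lengths. Trh stood at 1277 ± 74.3 TPM in control wild type (SD, n = 2) and ranked 41 of the 15822 tested genes. In control TKO it stood at 921 ± 180.2 TPM and ranked 77. Thus 99.7% and 99.5% of tested genes lay below it in untreated cells. With TSA it stood at 177 ± 45.9 TPM in wild type, rank 1191, and at 19.0 ± 3.40 TPM in TKO, rank 8354, where 47.2% of tested genes lay below it.

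With TSA, Trh in wild type cells was at 91.4 ± 24.8 CPM against 768 ± 44.1 with DMSO (SD, n = 2). The level was 8.41-fold lower, with a log2 fold change of -3.07 ± 0.19 (SE), and 11.9% of the DMSO level remained. Over the 4 pairs of a DMSO and a TSA library the fold ran from 6.77 to 10.8. In TKO cells Trh was at 9.89 ± 1.90 CPM with TSA against 544.0 ± 99.7 with DMSO. That is 55.0-fold lower, with a log2 fold change of -5.78 ± 0.22, and 1.82% of the DMSO level remained. The library pairs gave folds of 42.2 to 72.0, so the ranges of the genotypes did not overlap. The log2 fold change in TKO was lower than that in wild type by 2.71 ± 0.27 (log2 difference -2.71), a 6.56-fold difference between the folds.

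On the linear scale the order of the genotypes turned. Wild type cells had 676.9 ± 50.6 CPM less Trh with TSA, with library pairs from 628 to 726. TKO cells had 534 ± 99.8 CPM less, with pairs from 462 to 606. For CPM differences, ± is the combined SD, the root of the summed squares of the group SDs. It is a spread of libraries and not an SE. The CPM difference in TKO was 0.789 of that in wild type, and this ratio ran from 0.685 to 0.893 over 14 alternatives. The replicate block, which is among them, leaves CPM values as they are and so could not move the ratio. The change in TKO minus that in wild type was 143 ± 112 CPM (combined SD of the 4 groups), not far above that spread. As shares of the DMSO level, 88.1% was gone in wild type and 98.2% in TKO. Mean Trh in TKO was thus lower than in wild type both with DMSO and with TSA, with a larger ratio and a smaller CPM difference between the treatments. The smaller CPM difference rests on the gap between genotypes in DMSO, which did not pass the threshold when tested (below).

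Other pairs of groups place the same 4 levels side by side. With TSA in both, Trh was 9.24-fold lower in TKO than in wild type, with a log2 fold change of -3.21 ± 0.21 (SE). The CPM difference was -81.5 ± 24.8 (combined SD). TKO cells with TSA had 77.7-fold less Trh than wild type cells with DMSO, with library pairs from 65.6 to 93.6-fold and 1.29% of the level remaining. These pairs share libraries with those the gene was chosen on, and they were not tested.

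Without the inhibitor, the rule that chose Trh does not use the genotypes' difference, so this difference was tested, although it shares the DMSO libraries with the others. Trh was at 473 and 614 CPM in the control TKO libraries and at 737 and 799 CPM in control wild type. Both TKO libraries were below both wild type libraries. The log2 fold change was -0.50 ± 0.17 (SE), a 1.41-fold difference of 224 ± 109 CPM (combined SD). It did not pass the threshold (edgeR quasi-likelihood test with Benjamini-Hochberg adjustment, adjusted p = 0.0634). In this contrast 20.4% of all tested genes were called at an adjusted p below 0.05. Over 15 alternative fits the difference was negative in all 15 and was called in 6, with edgeR or DESeq2 adjusted p-values from 0.0187 to 0.361. Whether the genotype alone lowers Trh was therefore not settled with 2 libraries a group.

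The next comparison was of Trh with other highly expressed genes that were lower with TSA. Of the top 10% of tested genes by mean level, 1583 genes with at least 156 CPM over the 8 libraries, 1226 had a negative log2 fold change in wild type and 1136 in TKO. Their medians were -0.38 and -0.39. Trh ranked 4 in wild type and 3 in TKO by log2 fold change, and 99.67% and 99.74% of these genes had a smaller difference. Among all 15822 tested genes it ranked 38 in wild type and 6 in TKO. When highly expressed was set to the top 5% by the same mean, Trh ranked 1 in both genotypes. The genes with larger folds were then outside the set.

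The genes with larger folds in this set were Lefty1 and Lefty2, secreted inhibitors of Nodal signalling, and Upp1, a uridine phosphorylase. Lefty1 was at 358 and 316 CPM in control wild type, 21.2 and 7.68 in treated wild type, 390.0 and 334 in control TKO and 5.21 and 1.44 in treated TKO. No TSA library overlapped a DMSO library, and its log2 fold changes were -4.53 and -6.79 in wild type and TKO. Lefty2 was at 243 and 338 CPM, 24.1 and 7.54, 594 and 563, and 7.71 and 1.32 in the same order, with log2 fold changes of -4.18 and -7.02. Lefty1 and Lefty2 are similar neighbouring copies, so the split of reads between them is uncertain. Upp1 was at 214 and 297 CPM, 22.7 and 25.4, 454 and 489, and 30.8 and 39.4, with log2 fold changes of -3.41 and -3.75. It ranked before Trh in wild type and after it in TKO. The next genes below were Tet1, which oxidises methylated cytosine (-2.18 in wild type, -2.76 in TKO), then Grb10 (-1.82) and Syncrip (-1.82) in wild type, and Tdh (-2.57), a threonine dehydrogenase, in TKO.

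**Figure D2:**
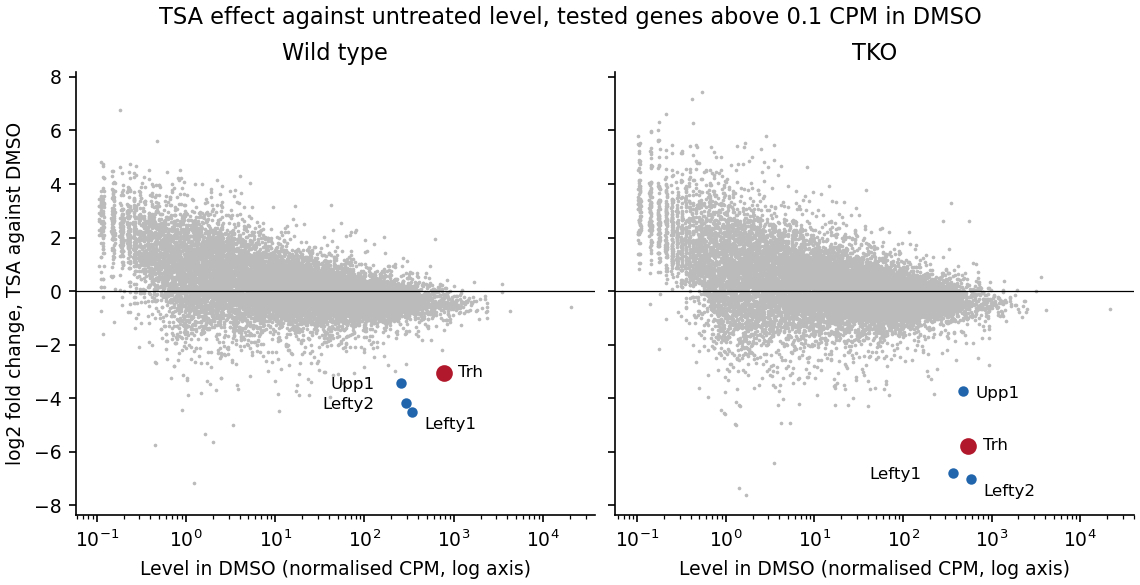
Log2 fold change of TSA against DMSO (vertical axis) by the DMSO level in normalised CPM (horizontal log axis) for tested genes above 0.1 CPM in DMSO, in wild type (left) and TKO (right). Each grey point is a gene. Trh (red) lies at -3.07 in wild type and -5.78 in TKO, with Lefty1, Lefty2 and Upp1 (blue) around it.

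By the CPM difference instead of the ratio, Trh ranked 12 in wild type and 26 in TKO. The first places went to very abundant transcripts whose ratios were small. Rn45s, the ribosomal RNA precursor, had 7128 CPM less in wild type and 8015 less in TKO. The libraries were depleted of ribosomal RNA, so its reads are what was left after that step. Hsp90ab1, a chaperone, had 1695 and 1576 CPM less, and Tubb5, a tubulin, 1181 and 1070. Within 2-fold of Trh's DMSO level, from 328 to 1312 CPM, there were 515 genes. Their median log2 fold change was -0.42 in wild type and -0.38 in TKO, and 3 and 2 of them had a lower value than Trh. A log2 fold change of -3 or below was shown by 4 of these genes in each genotype, Trh included.

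For the difference between genotypes, 1097 of the highly expressed genes had negative log2 fold changes in both. Of these, 565 (51.5%) had the larger one in TKO, and the median log2 difference was -0.01. Trh had the second most negative difference (-2.71 ± 0.27, SE), after Lefty2 (-2.84 ± 0.72) and before Lefty1 (-2.25 ± 0.59), Tdgf1 (-1.63 ± 0.28) and Tdh (-1.09 ± 0.245). The SEs of Lefty1 and Lefty2 reach the value of Trh, so the order of Trh and the Lefty genes is not resolved. Tdgf1 is a coreceptor of Nodal. Trh was also 1 of 76 genes of the 1097 (6.93%) with a larger log2 fold change and a smaller CPM difference in TKO.

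The genes whose pattern was most like that of Trh were found from 3 log2 fold changes, those of treated wild type, control TKO and treated TKO against control wild type. Likeness was the root mean square difference from those of Trh, among the 10024 tested genes that averaged 10 CPM or more. Lefty1 (0.941) and Lefty2 (1.08) were nearest. Fgf17 (1.29), a fibroblast growth factor, followed at 30.3, 4.94, 27.4 and 1.75 CPM in control wild type, treated wild type, control TKO and treated TKO. Then came Slc6a15 (1.52) and Slc5a11 (1.55), which are membrane transporters, Mcf2 (1.62), Slc28a1 (1.72), Gap43 (1.73), Kctd12b (1.79) and Slc7a3 (1.80), a transporter of basic amino acids. A distance of 1 is a 2-fold deviation, so even the nearest 2 genes deviated from Trh by about that much. Their Pearson r with Trh over the 8 libraries ran from 0.851 (Gap43) to 0.964 (Lefty1), which is a description, since the libraries share their groups.

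Fgf17 was at 33.0 and 27.6 CPM in control wild type, 7.64 and 2.24 in treated wild type, 25.9 and 29.0 in control TKO and 2.44 and 1.07 in treated TKO. Its TSA libraries lay below its DMSO libraries in both genotypes. Gap43, a growth cone protein, was at 25.7 and 29.9 CPM, 18.7 and 15.6, 11.02 and 9.10, and 1.08 and 1.01 in the same order. These levels are part of what placed both genes near Trh and were not tested. The choice of likeness decides the names. Ranked by Pearson r alone, the 10 genes nearest to Trh shared 0 with these. With a minimum mean of 1 CPM, 3 were shared and Adm2 came first, and with a minimum of 50 CPM, 3 were shared.

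**Figure D3:**
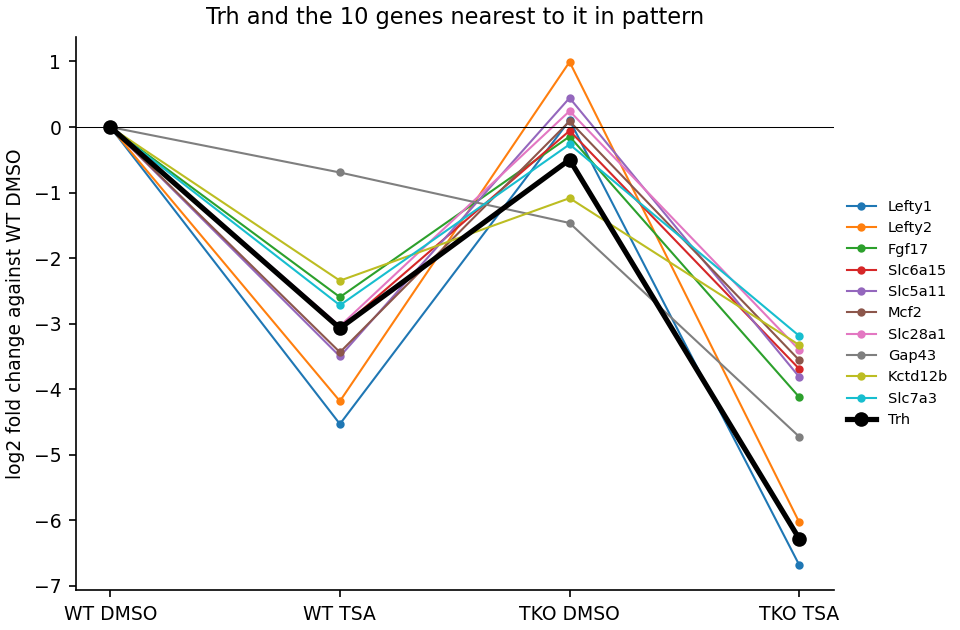
Log2 fold changes against control wild type (vertical axis) of Trh and the 10 genes nearest to it by root mean square difference, for treated wild type, control TKO and treated TKO (horizontal axis). Lines join the values of a gene and show no time course. Lefty1 and Lefty2 end lowest beside Trh in treated TKO (-6.28 for Trh).

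Genes of TRH signalling and of its making were read against the share called over all tested genes, 52.8% for TSA in wild type and 58.7% for TSA in TKO. The receptors were at or near 0. Trhr had 0 and 0 counts in control wild type, 1 and 1 in treated wild type, 0 and 1 in control TKO and 1 and 2 in treated TKO. Trhr2 had 2 and 3 counts in treated wild type and none in the other 6 libraries. Both stayed at or under the limit of 3 counts in every library and were not tested. Of the 23 listed receptors, processing enzymes and peptidases, 19 were tested. In wild type 6 rose and 3 fell with TSA (47.4% called, median log2 fold change 0.33, against 0.01 over all tested genes). In TKO 10 rose and 3 fell (68.4%, median 0.69 against 0.04). For TKO against wild type in DMSO, 3 rose and 3 fell (31.6%, median -0.12 against -0.01), where 20.4% of all genes were called. Without the second control TKO library 1 rose and 2 fell in that contrast. The split in wild type depends on the scaling, with 13 higher and 2 lower under total counts and 10 and 3 under the upper quartile, which move the median of all genes to 0.22 and 0.16.

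Of the steps that finish the hormone, the last were higher with TSA while Trh itself was lower. Pam, which amidates the peptide, was at 30.7 and 23.0 CPM in control wild type, 43.3 and 41.7 in treated wild type, 14.0 and 13.5 in control TKO and 34.9 and 40.8 in treated TKO. Its TSA libraries lay above the DMSO libraries in each genotype, and control TKO was the lowest group. It rose with TSA by 0.66 ± 0.15 (log2, SE) in wild type and 1.46 ± 0.16 in TKO and was lower in control TKO (-0.97 ± 0.16), with edgeR adjusted p-values of 0.0034, 2.22e-05 and 0.00163. Qpct, the glutaminyl cyclase, was at 3.85 and 3.16 CPM, 17.1 and 20.2, 5.68 and 6.70, and 13.3 and 12.6 in the same order. The TSA libraries were again higher, and its log2 fold changes were 2.40 ± 0.20 in wild type and 1.06 ± 0.18 in TKO (edgeR adjusted p = 1.38e-05 and 0.000559).

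The carboxypeptidases Cpm (carboxypeptidase M) and Cpd also rose with TSA in both genotypes. Mean Cpm went from 4.15 to 52.1 CPM in wild type and from 5.01 to 77.2 in TKO, with log2 fold changes of 3.66 and 3.94. Mean Cpd went from 74.1 to 133 CPM and from 87.8 to 172. Cpe, the carboxypeptidase of secretory granules, was at 17.7 and 14.4 CPM in control wild type, 26.8 and 21.3 in treated wild type, 4.93 and 6.26 in control TKO and 15.1 and 13.4 in treated TKO. It rose with TSA in TKO (1.35 ± 0.20, edgeR adjusted p = 0.000191) and fell in control TKO against wild type (-1.53 ± 0.20, adjusted p = 0.000508). Its call in wild type (0.58, adjusted p = 0.018) was lost without the second control wild type library (adjusted p = 0.104) and without the first treated wild type library (adjusted p = 0.159). The convertase Pcsk6 fell in both genotypes, from means of 47.2 to 21.9 CPM in wild type and 82.5 to 33.6 in TKO. Another convertase, Pcsk5, was low but rose in TKO, from means of 0.627 to 5.00 CPM (2.97 ± 0.46, edgeR adjusted p = 0.00027). That call was kept in all alternatives. In wild type Pcsk5 was not called (1.25 ± 0.50, adjusted p = 0.0553). The convertases best known for cutting hormone precursors, Pcsk1 and Pcsk2, were low, with means of 3.32 to 7.01 CPM for Pcsk1 and values of 0.655 to 5.03 CPM over the libraries for Pcsk2. Pcsk1 fell in TKO (-0.70, edgeR adjusted p = 0.0192), and Pcsk2 rose there (1.82, adjusted p = 0.0159), but each call was lost in at least 1 alternative.

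Among the peptidases, Trhde, the enzyme on cell surfaces that is specific for TRH, had 0 counts in all 4 DMSO libraries and 1 to 4 with TSA. Prep, a prolyl peptidase, was at 97.0 to 108 CPM in all 4 DMSO libraries and at 105 and 107 in treated wild type. It was at 141 and 143 in treated TKO, where it rose (0.49 ± 0.09, edgeR adjusted p = 0.000837), while its difference between genotypes was not called (adjusted p = 0.125), as for all but 1.35% of tested genes. Dpp4, another prolyl peptidase that is not known mainly for TRH, was at 23.3 and 31.2 CPM in control wild type, 5.01 and 4.76 in treated wild type, 27.8 and 26.1 in control TKO and 16.0 and 15.1 in treated TKO. It fell in both genotypes (-2.47 ± 0.18 and -0.79 ± 0.16, edgeR adjusted p = 8.12e-06 and 0.00142).

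**Figure D4:**
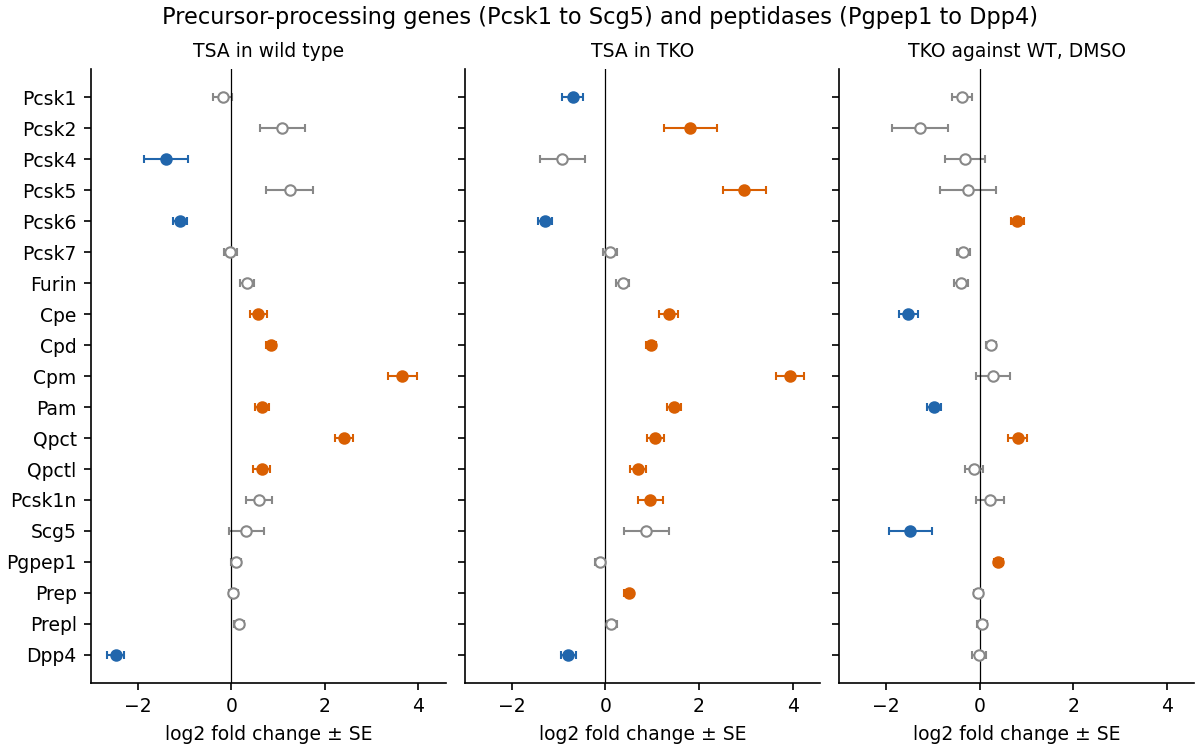
Log2 fold changes (horizontal axis, bars are SE) of the 19 tested genes of precursor processing and peptide cleavage, for TSA in wild type, TSA in TKO and TKO against wild type in DMSO. Filled points were called, orange higher and blue lower, and open points were not. Cpm lies farthest to the right with TSA (3.66 and 3.94), and Dpp4 farthest to the left in wild type (-2.47).

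Of 24 listed regulators of the Trh promoter, 23 were tested, and 5 rose and 9 fell with TSA in wild type, 3 rose and 8 fell in TKO, and 5 rose and 3 fell in control TKO. Over all tested genes 52.8%, 58.7% and 20.4% were called in these contrasts, and the medians of the list were 0.00, -0.03 and 0.00. With TSA in wild type the number that rose was 1 without the first control library, 3 without the second, 3 and 2 without the first and the second treated library (6 fell in the last case), 2 by DESeq2 and 3 with only the groups compared. With TSA in TKO 1 rose without the second control library. In control TKO 2 rose and 1 fell without either control TKO library, and 2 rose and 4 fell without the first control wild type library. Otp, a factor of hypothalamic neurons, had 0 counts in every library. Thra, the thyroid hormone receptor alpha, was at 13.2 and 16.2 CPM in control wild type, 7.45 and 7.14 in treated wild type, 7.73 and 9.53 in control TKO and 3.99 and 4.33 in treated TKO. Its TSA libraries lay below the DMSO libraries in both genotypes (-1.01 ± 0.19 and -1.05 ± 0.20, edgeR adjusted p = 0.00121 and 0.00122). The corepressor Ncor1, which works with that receptor, was at 292 and 304 CPM, 150.1 and 148, 381 and 372, and 193 and 169 in the same order, and fell by 1.00 and 1.06 on the log2 scale (edgeR adjusted p = 2.32e-05 and 7.04e-06). Its partner Tbl1xr1 fell from means of 199.8 to 94.7 CPM and from 225 to 104. Hdac3, the deacetylase of that complex, was not called (log2 fold changes of 0.00 and 0.02). Rxra, the receptor's partner, rose in both genotypes (0.87 and 1.33). Of the factors known to raise Trh, Creb1 fell from means of 151.0 to 98.1 CPM in wild type and from 125 to 94.5 in TKO (-0.62 ± 0.11 and -0.40 ± 0.11, edgeR adjusted p = 0.000986 and 0.00993). Its call in TKO was lost without the first control TKO library (edgeR adjusted p = 0.0678) and without the second treated one (adjusted p = 0.0957). Its relative Atf1 fell from 46.5 to 24.1 CPM and from 55.9 to 23.7 (-0.95 ± 0.18 and -1.24 ± 0.18). Stat3 fell from 187 to 135 CPM in TKO (-0.47 ± 0.09, edgeR adjusted p = 0.00089). In wild type Stat3 stood at 148 and 126 CPM (-0.23 ± 0.09, adjusted p = 0.0436), a call lost in 13 of 15 alternatives. Genes of the thyroid hormone receptor and its corepressors and genes known to raise Trh were thus both among those lower with TSA.

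Of 11 listed genes that act downstream in the thyroid axis, 5 were tested. With TSA 4 rose and 1 fell in wild type, and 3 rose and 1 fell in TKO, where 52.8% and 58.7% of all tested genes were called. Tshb, the thyrotropin subunit, had at most 2 counts in a library. Dio3, the deiodinase that inactivates thyroid hormone, was at 2.43 and 2.51 CPM in control wild type, 8.37 and 13.5 in treated wild type, 3.49 and 3.06 in control TKO and 15.9 and 27.8 in treated TKO. Its treated libraries lay above the control libraries in both genotypes (2.14 ± 0.34 and 2.74 ± 0.31, edgeR adjusted p = 0.000426 and 3.48e-05). Tshr, the thyrotropin receptor, was low, at 0.785 and 0.243 CPM, 2.26 and 2.17, 0.0684 and 0.145, and 1.90 and 1.13 in the same order, and rose in both genotypes (edgeR adjusted p = 0.00492 and 0.000857).

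Trh stood apart in level from other precursors of peptide hormones and neuropeptides. Of 82 listed, 79 were in the table, 8 of them with no counts, and 34 were tested. Together with Trh, these 35 were ordered by TPM. Trh was first in control wild type at 1277 TPM, with Igf2 next at 38.7, and first in control TKO at 921 TPM, with Nenf next at 32.7. In treated wild type it was first at 177 TPM, with Igf2 at 116, and in treated TKO it was 12th, where Calca led at 81.6. Trh was chosen for its lower level with TSA, so its direction beside these genes is only a description. In wild type 18 of the 34 rose and 2 fell (median log2 fold change 1.32), and in TKO 22 rose and 3 fell (1.45). Over all tested genes 27.0% were higher and 25.9% lower in wild type, and 30.8% and 27.9% in TKO. In control TKO, 2 rose and 4 fell (median 0.18), against 9.63% and 10.7% of all genes, and 1 rose without the first or the second control TKO library or the first control wild type library.

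Examples that rose with TSA were Sct, secretin, Nppb, a natriuretic peptide, and Calca, calcitonin. Sct was at 1.29 and 1.94 CPM in control wild type, 12.1 and 19.4 in treated wild type, 1.03 and 1.16 in control TKO and 7.58 and 12.7 in treated TKO. All TSA libraries of Sct lay above all DMSO libraries (3.29 ± 0.35 and 3.21 ± 0.38, edgeR adjusted p = 4.75e-05 and 4.2e-05). Nppb rose by 2.30 ± 0.27 and 2.11 ± 0.25, and Adm, adrenomedullin, by 1.88 ± 0.42 and 3.73 ± 0.44. Pyy had 0 to 2 counts in each DMSO library and 26 to 51 with TSA. Rln3, a relaxin, fell like Trh in both genotypes, at 6.71 and 5.11 CPM in control wild type, 2.87 and 1.90 in treated wild type, 5.95 and 5.09 in control TKO and 1.83 and 1.01 in treated TKO (-1.30 ± 0.31 and -1.97 ± 0.34, edgeR adjusted p = 0.00495 and 0.000495). Adm2 was the other that was lower in both, with 17 and 45 counts, 6 and 7, 16 and 21, and 2 and 0. Its call in wild type was lost without the second control wild type library (edgeR adjusted p = 0.0765).

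Igf2, the growth factor, and Vgf, a secreted granule protein, were lower in control TKO than in control wild type, at means of 9.78 ± 0.28 against 71.4 ± 12.2 CPM for Igf2 and 0.984 ± 0.157 against 5.46 ± 0.96 for Vgf (SD, n = 2). Their log2 fold changes were -2.87 ± 0.26 and -2.46 ± 0.29 (edgeR adjusted p = 4.67e-05 and 0.000267). Unlike Trh, both rose with TSA, Igf2 by 1.35 and 1.87 and Vgf by 1.83 and 1.48 in wild type and TKO.

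Cell identity markers moved with the same groups, and their part in the Trh difference was not tested. Of the 25 pluripotency markers, 19 fell and 1 rose with TSA in each genotype (medians -0.94 and -1.01), against 25.9% lower and 27.0% higher of all tested genes in wild type and 27.9% and 30.8% in TKO. In control TKO 9 of them rose and the other 16 were not called (median 0.30), against 9.63% of all tested genes higher. That count was 3 without the second control TKO library and 4 without the first control wild type library, and with the replicate block 12 rose and 2 fell. Pou5f1 fell from a mean of 913 to 409 CPM in wild type and from 941 to 349.9 in TKO. Fgf4 had log2 fold changes of -2.75 ± 0.20 and -2.30 ± 0.19, Gdf3 of -2.40 ± 0.18 and -2.99 ± 0.19, and Dppa3 rose from means of 24.9 to 70.3 CPM and of 30.4 to 125. The log2 fold change of Trh was lower than those of all 25 markers in each genotype. Markers of hypothalamic neurons summed to 198 to 220 CPM in control wild type, 108 to 131 in treated wild type, 207 to 227 in control TKO and 73.7 to 88.9 in treated TKO, and nearly all of that was Stmn2. Of those 12 markers Otp had 0 counts, and Nkx2-1 and Crh had at most 2 in a library. Trophoblast markers summed to 506 to 745 CPM, 1400 to 1510, 103 to 151 and 385 to 452 in the same order, and 10 of 12 rose with TSA in wild type and 8 of 12 in TKO, against 27.0% and 30.8% of all tested genes. In control TKO 1 of the 12 rose and 5 fell, against 9.63% higher and 10.7% lower of all tested genes. Hand1 and Eomes are in both the trophoblast and the mesoderm lists. Endoderm markers summed to 664 to 819, 862 to 873, 767 to 808 and 800.0 to 888 CPM, mesoderm markers to 27.7 to 47.2, 56.3 to 57.5, 13.1 to 15.1 and 52.7 to 67.3, and neural markers to 362 to 441, 227 to 258, 334 to 368 and 209 to 219. TMM factors were 0.929 to 0.955 with DMSO and 1.04 to 1.08 with TSA, so these uncorrected sums read relatively higher with TSA. With TSA in wild type, 3 of 14 tested endoderm markers rose and 1 fell, 3 and 2 of 11 mesoderm, and 3 and 6 of 11 neural. In TKO these were 4 and 2, 4 and 2, and 4 and 4. In control TKO they were 6 and 0, 2 and 3, and 1 and 1. Mesenchymal markers, which would show feeder cells, summed to 871 to 1160, 756 to 1040, 618 to 630.0 and 442 to 532 CPM. Of the 15 tested, 5 rose and 5 fell with TSA in wild type (median 0.24), and 11 rose and 1 fell in TKO (2.15). In control TKO 1 rose and 8 fell (median -2.53). With TSA in TKO the sum and most calls thus went in opposite directions. Over all tested genes 27.0% were higher and 25.9% lower, 30.8% and 27.9%, and 9.63% and 10.7% in these contrasts.

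The neighbours of Trh on chromosome 6 did not share its levels. Of the 5 nearest on each side, 9 were tested, and their log2 fold changes ran from -0.48 to 1.13 with TSA in wild type and from -0.75 to 0.75 in TKO. In wild type Prickle2 rose (1.13, edgeR adjusted p = 0.00227) and Nr2c2 fell (-0.48, adjusted p = 0.00273). In TKO 3 rose (Prickle2, Adamts9 and Magi1) and 2 fell (Nr2c2 at -0.75 and Slc25a26 at -0.48), and in control TKO 1 rose (Adamts9) and 2 fell (Fgd5 and Magi1). Over all tested genes 52.8%, 58.7% and 20.4% were called in these contrasts. The nearest gene, Zfyve20, 27250 bases away, was at 76.8, 79.2, 83.8 and 84.0 CPM in control wild type, treated wild type, control TKO and treated TKO and was not called. Nr2c2 encodes a nuclear receptor, and its libraries held 92.1 and 94.8 CPM, 62.5 and 71.2, 88.2 and 88.9, and 49.3 and 56.1 in the same order. Its TSA libraries lay below the DMSO libraries in both genotypes, by far less than those of Trh. The calls of Prickle2 in TKO, Slc25a26 and Fgd5 were each lost without 1 library or more.

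**Figure D5:**
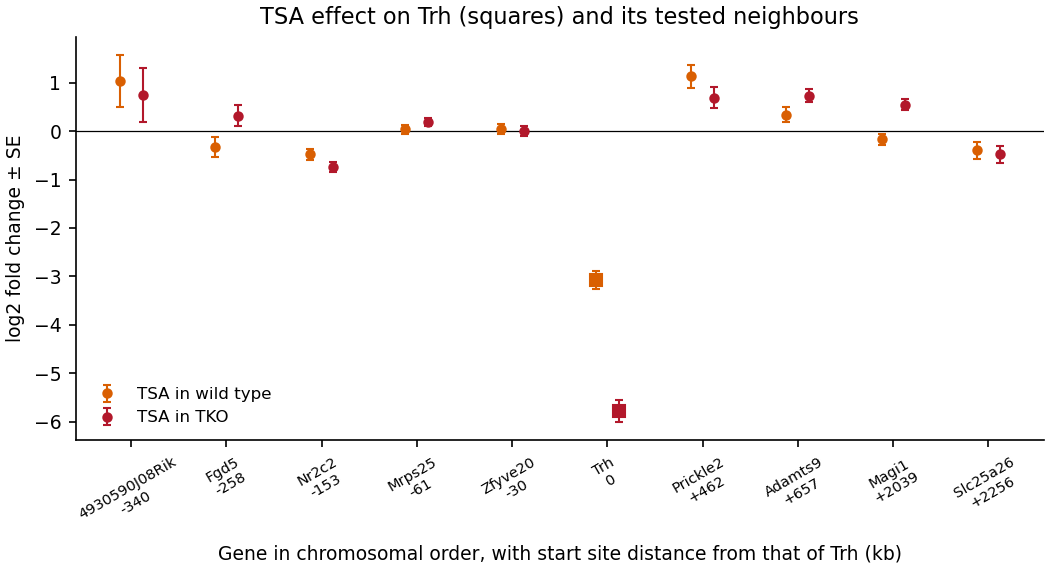
Log2 fold changes (vertical axis) of Trh and its 9 tested neighbours in chromosomal order with the distance of each start site from that of Trh in kilobases (horizontal axis), for TSA in wild type and in TKO. Bars are SE. Trh (-3.07 with TSA in wild type, -5.78 in TKO) lies well below the neighbours, which stay between -0.75 and 1.13 in the TSA contrasts.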

How the data were processed

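RNA was measured in 8 libraries, and the other 118 samples of the series (ChIP-seq, ATAC-seq and their controls) were not analysed here. Per the labels' protocols, total RNA was depleted of ribosomal RNA, made into directional libraries and sequenced from both ends. The authors deposited whole-number counts of reads per gene in 1 table. The deposited exon length of each gene, in bases, is the other value the authors give. The submitters' processing notes name TopHat2 2.0.13, featureCounts 1.4.5-p1, edgeR 3.22.3 and the mm10 build. The settings for strand and for reads that match several places are not given in the sources used here.

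The counts went through edgeR 4.0.16 (R 4.3.3). After its filterByExpr step, 15822 of the 23420 genes remained. Libraries were scaled by TMM, and a quasi-likelihood model with 4 group means was fitted once to the 8 libraries, leaving 4 residual degrees of freedom. Tests were two-sided, p-values were adjusted by Benjamini-Hochberg over the tested genes, and "called" means an adjusted p below 0.05. Differences between genotypes in the TSA effect are TKO minus wild type. SEs come from each fold change and its F value. For 1 gene with 2 against 2 libraries the smallest p of an exact permutation test is 0.333, so these p-values rest on the spread shared across genes. Replicates differed by more than sampling noise, with a chi-square per degree of freedom of 5.28 to 12.2. Among the gene identifiers, 2 appear for more than 1 gene, altered as a spreadsheet does.

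Trh and the gene lists were chosen with earlier results of these data known. A rule set which genes could be named. It took Trh and called members of the receptor, processing, peptidase and promoter regulator lists. It also took up to 8 called hormone precursors per contrast, the 10 genes nearest in pattern and the 10 neighbours. Highly expressed genes lower than Trh, the 3 next, and pluripotency markers with the largest changes completed it. Not all of these are named, and the choice among them was made with their values known. Calca, Rln3, Dio3, Tshr, Pou5f1, Tshb, Hdac3, Stmn2 and the genes given by CPM difference were named after their values were seen. From the thyroid axis list, 1 gene was left out and is not reported here. Pearson r used log2 of CPM plus 0.5. The alternatives were other scaling, no filter, DESeq2 1.42.0, only the groups compared, the replicate block and leaving out each library. Promoter sequence is from RefSeq (GRCm38.p6, the assembly that mm10 names).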

Additional observations from a re-analysis of the deposited data

Results flagged for a closer look

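For 2 genes around Trh the effect of TSA differed between the genotypes by the test of that difference, which called 1.35% of all tested genes. Qpct, the glutaminyl cyclase that closes the front end of TRH, rose less in TKO than in wild type, with a log2 difference of -1.34 ± 0.27 (edgeR adjusted p = 0.0426). This call was lost in each of the 8 fits that left out 1 library, with adjusted p-values of 0.0626 to 0.19. Dpp4, the prolyl peptidase, fell less in TKO, with a difference of 1.68 ± 0.24 (edgeR adjusted p = 0.0116), and its call was lost without the second control TKO library (adjusted p = 0.0804).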

How the results depend on the processing

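The log2 fold change of Trh with TSA kept its sign in all 15 alternatives in each genotype, at -3.08 to -2.87 in wild type and -5.82 to -5.64 in TKO, and at -3.38 to -2.82 and -5.99 to -5.59 without 1 library. The log2 difference between genotypes ran from -2.79 to -2.71 and, without 1 library, from -2.97 to -2.41. Between genotypes in DMSO, Trh came to be called with DESeq2 (-0.49, adjusted p = 0.0217), without the filter (-0.48, edgeR adjusted p = 0.0229), with only the libraries compared (-0.49, 0.0187), and with the replicate block (-0.50, 0.0401). Without 1 library it ran from -0.70 to -0.32 and was called without the first or the second treated wild type library (edgeR adjusted p = 0.0239 and 0.0231), which this contrast uses only for the spread. The replicate numbers are shared only as numbers, with deviations of same-numbered libraries correlated at 0.0673 to 0.325. The rank of Trh was 1 in both genotypes within the top 5%, and 3 to 4 in wild type and 2 to 3 in TKO without 1 library. The number of genes called for the difference between genotypes, 213, moved to 401 with DESeq2, 488 without the filter and 633 with the replicate block, and ran from 10 to 410 without 1 library. For TKO against wild type in DMSO it was 3221, ran from 1458 to 3330 without 1 library and was 4217 with the block. For TSA it ran from 5780 to 8279 in wild type and from 7123 to 9839 in TKO without 1 library. The cause of these moves was not tested. Depth limits the receptors of TRH, at 3 counts or fewer. It does not limit Trh, with at least 136 counts in each library.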
